A study of Mus musculus with 6 samples.

Results

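The interleukin-1 family and its receptors were followed in the distal colon of mice with chemically induced colitis. Members were found by their symbols in the deposited expression table, and all 10 were present among 27546 listed genes: Il1a, Il1b, Il18, Il33, Il1rn, Il18bp, Il1r2, Il1r1, Il1rap and Il1rl1. The comparison was between 3 Gm31629-/- mice and 3 WT littermates, all labelled C57BL/6 (C57BL/6J in the study's methods) and 8 weeks old, with 1 RNA-Seq library per mouse. Gm31629 is a long noncoding RNA, and the study's methods describe its deletion without a driver that would limit it to a cell type. Mice of both genotypes drank 3% dextran sulfate sodium (DSS), a polymer that injures the colonic epithelium, for 7 days and were sacrificed on day 8. No untreated mice were part of the comparison, so the values describe the genotypes under injury and not the response to DSS. The table holds no row named Gm31629, so the level of the deleted transcript was not analysed here.

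The interleukin-1 family holds small cytokines that start and amplify inflammation. IL-1α, IL-33 and pro-IL-1β lack a classical secretion signal. IL-1α and IL-33 act as alarm signals when damaged cells release them, whereas IL-1β and IL-18 are cut to their active form by caspase-1 in the inflammasome. Each cytokine binds a receptor that pairs with an accessory chain and signals through MyD88, and soluble antagonists and decoy receptors hold this signaling back. In the colon, IL-18 is made mainly by epithelial cells, IL-1β mainly by macrophages, monocytes and neutrophils, and IL-33 by stromal and epithelial cells.

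Levels are given as FPKM, fragments divided by gene length and library depth, so that levels of different genes can be compared. The depth recovered from the size of 1 fragment in the table was 18005900 to 18795200 fragments per library. Fragments summed over genes were above this, at 19046700 to 19882900, so the depth is a scaling estimate and not a count of mapped fragments. The members rested on 12 to 7560 recovered fragments per library. Libraries of Gm31629-/- mice listed 22456 to 23600 genes above 0, and those of WT mice 19938 to 20118. Gm31629-/- mouse 1 stood apart from the other mice. Its library alone held the Y-linked transcripts Ddx3y, Eif2s3y, Kdm5d and Uty, at 2.03 to 15.4 FPKM. In the other 5 libraries these 4 genes were listed at 0, and Xist, the transcript of the inactive X chromosome, stood at 8.35 to 13.8 FPKM against 0.00606 FPKM in mouse 1. The study's methods state that male mice were used, which these 5 libraries go against. Members and pathway genes whose call changed without mouse 1 are given both ways.

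Cell type marker sums also differed between genotypes. Markers were called by the limma rule given below for the members, by which 18.4% of the 14657 tested genes were higher and 4.64% lower. The summed FPKM of 12 epithelial markers was 7701 to 10011 in Gm31629-/- mice and 15353 to 16952 in WT mice, with 0 markers called higher and 5 called lower. The 5 were Krt8, Krt19, Cdx1, Cdx2 and Car1. Epcam and Cdh1 were nearly level, with means of 1109 against 1104 FPKM and 395 against 405 FPKM. Slc26a3 overlapped, with means of 99.5 against 35.1 FPKM. The macrophage and monocyte list summed to 591, 1381 and 701 FPKM in Gm31629-/- mice 1 to 3 and to 96.5 to 106 FPKM in WT mice, with 11 of 12 markers higher. The neutrophil list summed to 538 to 1039 FPKM against 72.2 to 130.3 FPKM, with 9 of 10 higher. Of these sums, Ly6g gave 288, 596 and 965 FPKM in Gm31629-/- mice 1 to 3 and 66.7 to 121 FPKM in WT mice. S100a8, S100a9, Mmp8 and Retnlg instead fell from Gm31629-/- mouse 1 to mouse 3, and Cxcr2, Csf3r and Mmp9 were highest in mouse 2. Fibroblast markers summed to 273 to 722 FPKM against 26.3 to 50.9 FPKM, with 10 of 10 higher. Smooth muscle markers reached 1423 to 2313 FPKM in Gm31629-/- mice and 11.9 to 35.4 FPKM in WT mice, and 9 of 10 were higher. Endothelial markers were higher for 8 of 8, adipocyte markers for 4 of 5 tested, T cell markers for 3 of 7 tested and mast cell markers for 1 of 6 tested. Of 3 tested mesothelial markers, 2 were higher and 1 was lower. Some defining markers were listed at 0 in at least 1 library: Ngp and Camp of neutrophils, Tpsab1 and Ms4a2 of mast cells, Wt1 and Lrrn4 of mesothelium, and Lep of adipocytes. Epithelial markers, of which Krt8 was the most abundant, were above 0 in all 6 libraries, as the colon label requires. In bulk tissue, fewer cells of a type and less RNA per cell cannot be told apart. The mean smooth muscle sum differed 82.6-fold, and whether the samples held the same layers of the colon wall was not tested. The part of these shifts in the members' differences was not tested beyond the ratios given below.

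**Figure D1:**
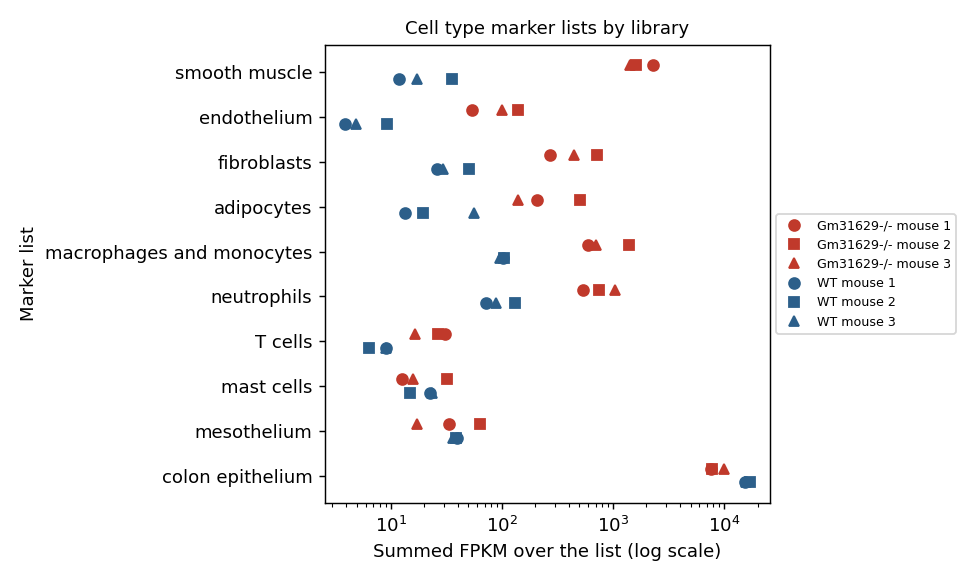
Summed FPKM of each reported cell type marker list (log axis) in each library, in red for the 3 Gm31629-/- and in blue for the 3 WT mice, with circle, square and triangle for mice 1, 2 and 3. Smooth muscle, fibroblast, endothelial, neutrophil, macrophage, T cell and adipocyte sums of Gm31629-/- mice lay above those of WT mice, and epithelial sums lay below. Mast cell and mesothelial sums overlapped.

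Across the family, 6 of 10 members were higher in Gm31629-/- mice: Il1a, Il1b, Il33, Il1rn, Il1r2 and Il1r1. Calls needed a log2 fold change beyond 1 together with an adjusted p below 0.05 in limma, and by this rule 18.4% of the 14657 tested genes were higher. No member was called lower by limma, against 4.64% of all tested genes, and since all 10 log2 fold changes were above 0, none was lower at an unadjusted p or by voom either. In 7 members every Gm31629-/- mouse lay above every WT mouse, which 36.3% of tested genes did, and in 0 members every Gm31629-/- mouse lay below, against 21.5%. All 10 members passed the filter on low values, and their median log2 fold change was 1.64, beside 0.15 over all tested genes. The all-gene median moved to -0.05 when libraries were scaled by the median ratio and to 0.86 when scaled to the epithelial list. Under these scalings 6 and 8 members were higher, beside 2233 and 6089 of the 14657 tested genes. Without Gm31629-/- mouse 1, 7 members were higher, with Il1rl1 added, and the share of all genes called higher was 18.5%. Log2 fold changes were computed on log2(FPKM + 1), which understates the change of low genes.

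**Figure D2:**
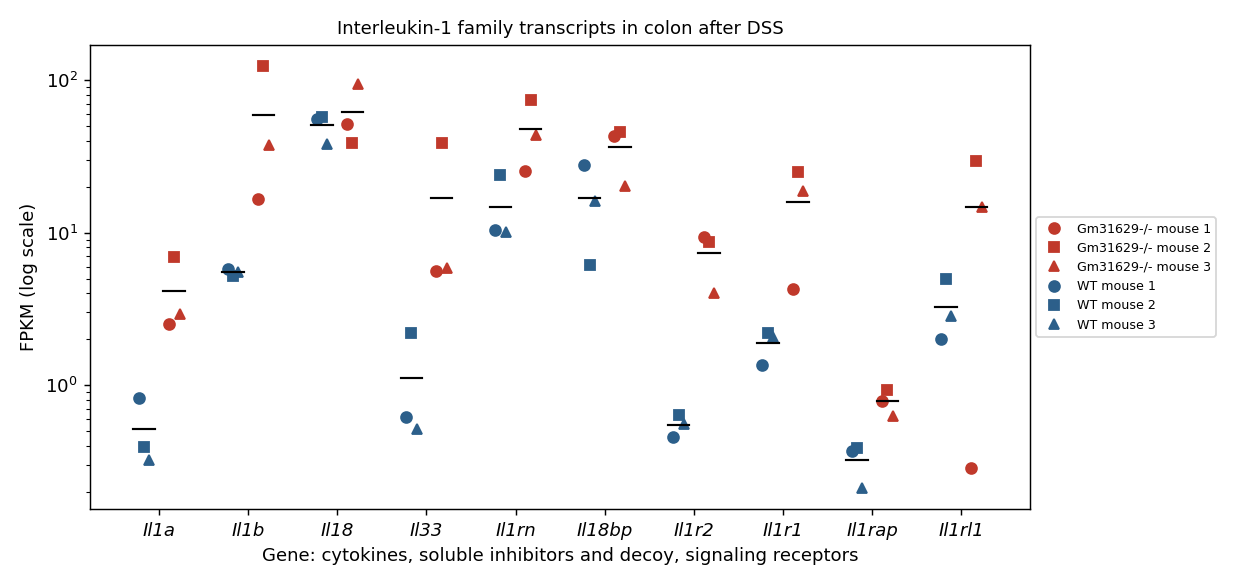
FPKM (log axis) of the 10 members in each mouse, ordered as cytokines, inhibitors and receptors, in red for Gm31629-/- and blue for WT, with circle, square and triangle for mice 1, 2 and 3 and black bars for group means. The 3 Gm31629-/- mice lay above the 3 WT mice in 7 members, and Il18, Il18bp and Il1rl1 overlapped.

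**Figure D3:**
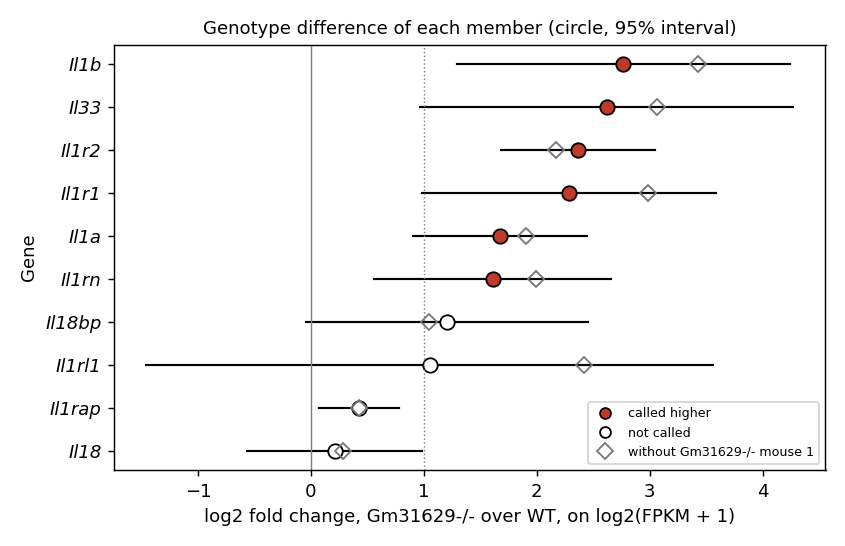
Log2 fold change of each member, Gm31629-/- over WT, on the log2(FPKM + 1) scale, with points for the limma estimate and bars for its 95% confidence interval. The estimates ran from 0.21 for Il18 to 2.77 for Il1b, and the intervals of Il18, Il18bp and Il1rl1 reached below 0.

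The deposited values do not separate start sites, but RefSeq promoter windows were matched for all 10 members, in 15 windows, and 3 are shown because they belong to cytokine genes that were higher. Each holds the 250 bases before a start site, read in the gene's direction on GRCm38.p6. Capitals mark TATAAA and, where present, TGANTCA (an AP-1 type motif) or TTGCNNAA (a C/EBP type motif). They are Il1a at chr2:129309973-129310222 (minus strand), Il1b at chr2:129371140-129371389 (minus strand) and the downstream start of Il33 at chr19:29945540-29945789 (plus strand).
Il1a: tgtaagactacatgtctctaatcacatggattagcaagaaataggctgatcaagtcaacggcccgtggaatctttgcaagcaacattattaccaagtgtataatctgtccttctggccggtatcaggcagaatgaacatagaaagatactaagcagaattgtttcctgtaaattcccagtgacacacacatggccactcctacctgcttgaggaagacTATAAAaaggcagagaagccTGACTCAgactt
Il1b: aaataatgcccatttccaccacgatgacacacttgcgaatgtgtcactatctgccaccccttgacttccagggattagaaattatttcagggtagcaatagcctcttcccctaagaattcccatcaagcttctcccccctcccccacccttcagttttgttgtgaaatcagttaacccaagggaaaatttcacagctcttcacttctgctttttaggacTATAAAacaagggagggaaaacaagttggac
Il33: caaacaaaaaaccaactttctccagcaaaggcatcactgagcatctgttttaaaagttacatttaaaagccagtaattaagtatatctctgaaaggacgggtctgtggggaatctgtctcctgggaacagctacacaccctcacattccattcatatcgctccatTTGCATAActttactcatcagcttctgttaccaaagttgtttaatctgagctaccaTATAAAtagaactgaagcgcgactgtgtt
TATAAA stood 32, 31 and 29 bases before the start in these 3 windows, and TGACTCA stood 12 bases before it in Il1a. TTGCATAA stood 85 bases before the start in Il33. These windows were chosen after their matches were seen. Both strands were searched, and TATAAA occurred in 5 of the 15 windows, against 12.4% of 32851 windows of all genes. TGANTCA occurred in 2, against 6.75% of all, TTGCNNAA in 4, against 9.56%, and the NF-kB motif in 1, against 7.25%. A match is a description of letters, not a binding site.

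The agonist cytokines came first in the order of roles. Il1b (ENSMUSG00000027398, chr2:129364570-129371139, minus strand) encodes IL-1β, the cytokine that inflammasome cleavage releases from myeloid cells. Its level was 16.7, 125 and 37.6 FPKM in Gm31629-/- mice 1 to 3 and 5.75, 5.18 and 5.52 FPKM in WT mice 1 to 3. All Gm31629-/- mice lay above the WT mice, and mouse 2 stood far above its group. The means were 59.6 ± 57.3 against 5.49 ± 0.287 FPKM (SD, n = 3 each), with a log2 fold change of 2.77 (SE 0.63, limma adjusted p = 0.0117). Leaving out each mouse in turn kept the log2 fold change between 2.01 and 3.42, and the call remained. Only 1.31% of its exon bases overlap an antisense gene, Il1bos, which matters because the library kit does not mark strand.

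Il1a (ENSMUSG00000027399, chr2:129299610-129309972, minus strand) encodes IL-1α and ends 54598 bases before Il1b on the same strand. Its level was 2.51, 6.97 and 2.92 FPKM in Gm31629-/- mice and 0.822, 0.394 and 0.323 FPKM in WT mice, which came from 91, 254 and 106 fragments against 30, 14 and 12. The groups did not overlap, and mouse 2 was again the highest. The means of 4.13 ± 2.47 and 0.513 ± 0.270 FPKM (SD, n = 3 each) differed by 1.68 on the log2 scale (SE 0.33, limma adjusted p = 0.00672). Gm14023, on the other strand, shares 11.2% of its exon bases, and was listed at 0.0306 to 0.213 FPKM in the 6 libraries.

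Il33 (ENSMUSG00000024810, chr19:29925114-29960718, plus strand) encodes IL-33, a nuclear alarm cytokine. Its level was 5.63, 39.0 and 5.85 FPKM in Gm31629-/- mice and 0.618, 2.19 and 0.516 FPKM in WT mice. Mouse 2 was far above the other Gm31629-/- mice, although all 3 lay above WT. The means were 16.8 ± 19.2 against 1.11 ± 0.941 FPKM (SD, n = 3 each), a 15.2-fold difference, with a log2 fold change of 2.62 (SE 0.70, limma adjusted p = 0.0216). Without WT mouse 1 or WT mouse 3 the adjusted p of limma was 0.0707 and 0.0814, so the call was lost. Without Gm31629-/- mouse 2, the Il33 log2 fold change was 1.76 and the call remained.

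Il18 (ENSMUSG00000039217, chr9:50554827-50581840, plus strand) encodes IL-18, an epithelial cytokine that sustains the barrier and drives interferon-γ. Its level was 52.1, 38.8 and 94.7 FPKM in Gm31629-/- mice and 55.9, 57.4 and 38.4 FPKM in WT mice. The groups overlapped, and it was the highest member in 5 of 6 libraries. The means of 61.9 ± 29.2 and 50.6 ± 10.6 FPKM (SD, n = 3 each) differed by 0.21 on the log2 scale (95% confidence interval -0.57 to 0.99, limma adjusted p = 0.633). Scaling by the median ratio gave -0.05, and scaling to the epithelial list gave 1.11 (limma adjusted p = 0.00693). Under the latter scaling the all-gene median was 0.86.

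The inhibitors of the family followed. Il1rn (ENSMUSG00000026981, chr2:24336853-24351494, plus strand) encodes the IL-1 receptor antagonist. Its level was 25.4, 74.0 and 44.0 FPKM in Gm31629-/- mice and 10.4, 23.8 and 10.2 FPKM in WT mice. The groups did not overlap, but the lowest Gm31629-/- mouse was close to the highest WT mouse. The means of 47.8 ± 24.5 and 14.8 ± 7.81 FPKM (SD, n = 3 each) differed by 1.61 on the log2 scale (SE 0.45, limma adjusted p = 0.0243). The call was lost without the filter (limma adjusted p = 0.0525) and in 4 of 6 fits without 1 mouse, where the limma adjusted p reached 0.0931.

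Il1r2 (ENSMUSG00000026073, chr1:40074079-40125231, plus strand) encodes the decoy receptor, which binds IL-1 without passing on a signal. Its level was 9.40, 8.75 and 3.99 FPKM in Gm31629-/- mice and 0.453, 0.640 and 0.558 FPKM in WT mice, from 330, 308 and 140 fragments against 16, 22 and 20. The groups were far apart, and mouse 1, not mouse 2, was the highest. The means of 7.38 ± 2.95 and 0.550 ± 0.0937 FPKM (SD, n = 3 each) differed by 2.36 on the log2 scale (SE 0.29, limma adjusted p = 0.00122). This was the lowest adjusted p among the members.

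Il18bp (ENSMUSG00000070427, chr7:102014885-102018690, minus strand) encodes the soluble protein that traps IL-18. Its level was 43.3, 45.7 and 20.3 FPKM in Gm31629-/- mice and 28.0, 6.17 and 16.3 FPKM in WT mice. Gm31629-/- mouse 3 fell within the WT range. The means of 36.4 ± 14.0 and 16.8 ± 10.9 FPKM (SD, n = 3 each) differed by 1.21 on the log2 scale (95% confidence interval -0.04 to 2.45, limma adjusted p = 0.104). It passed without WT mouse 1 (limma adjusted p = 0.0487) and under scaling to the epithelial list (limma adjusted p = 0.0103), but without WT mouse 2 the log2 fold change was 0.66 (limma adjusted p = 0.251). Numa1, on the other strand, shares 2.64% of the exon bases of Il18bp and was at 19.96 to 42.7 FPKM, and its part in the Il18bp level was not tested.

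Among the receptors, Il1r1 (ENSMUSG00000026072, chr1:40225080-40317257, plus strand) encodes the signaling receptor for IL-1α and IL-1β. Its level was 4.30, 25.0 and 18.7 FPKM in Gm31629-/- mice and 1.36, 2.21 and 2.07 FPKM in WT mice. All Gm31629-/- mice were above WT, with mouse 1 nearest to them. The means of 16.0 ± 10.6 and 1.88 ± 0.456 FPKM (SD, n = 3 each) differed by 2.29 on the log2 scale (SE 0.55, limma adjusted p = 0.0149). In 3 fits without 1 mouse the call was lost, with a limma adjusted p of up to 0.0547.

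Il1rap (ENSMUSG00000022514, chr16:26581704-26730117, plus strand) encodes the accessory chain shared by the IL-1, IL-33 and IL-36 receptors. Its level was 0.785, 0.935 and 0.628 FPKM in Gm31629-/- mice and 0.371, 0.386 and 0.211 FPKM in WT mice. It was the lowest member in 5 of 6 libraries, and the groups did not overlap. The means of 0.782 ± 0.154 and 0.323 ± 0.0972 FPKM (SD, n = 3 each) gave a 2.42-fold ratio, but 0.43 on the log2(FPKM + 1) scale (SE 0.15, limma adjusted p = 0.0540). With a pseudocount of 0.1 the log2 fold change was 1.08 (limma adjusted p = 0.0481), and with voom on the recovered fragments 1.31 (limma adjusted p = 0.0164).

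Il1rl1 (ENSMUSG00000026069, chr1:40429570-40465415, plus strand) encodes ST2, the receptor of IL-33, in a membrane and a soluble form that gene-level values do not separate. Its level was 0.284, 29.4 and 14.7 FPKM in Gm31629-/- mice and 2.02, 4.95 and 2.82 FPKM in WT mice, from 36, 3740 and 1863 fragments against 257, 615 and 366. Gm31629-/- mouse 1 was below every WT mouse, and the other 2 were above them. The means of 14.8 ± 14.6 and 3.26 ± 1.52 FPKM (SD, n = 3 each) differed by 1.05 on the log2 scale (95% confidence interval -1.46 to 3.56, limma adjusted p = 0.451). Without mouse 1, the log2 fold change was 2.42 and the limma adjusted p 0.00429.

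Among the Gm31629-/- mice, mouse 2 was highest of the 3 in 8 members, all but Il18 and Il1r2. Mouse 1 was lowest in 6 members, Il1a, Il1b, Il1rn, Il1r1, Il1rl1 and Il33, and highest in Il1r2. The summed level of the 10 members was 160, 393 and 243 FPKM in Gm31629-/- mice and 106, 103 and 76.8 FPKM in WT mice. Il18 made up 32.5%, 9.88% and 38.9% of that sum in Gm31629-/- mice and 52.9%, 55.5% and 50.0% in WT mice. Il1b made up 10.4%, 31.7% and 15.4% against 5.45%, 5.02% and 7.19%. In Gm31629-/- mouse 2, Il1b was the highest member, and in the other 5 libraries Il18 was. In WT mice the ranges of Il18bp and Il1rn overlapped. Among the low members, Il33 overlapped with Il1rl1, Il1r1, Il1a and Il1r2. Il1rl1 also overlapped with Il1r1, and Il1a with Il1r2 and Il1rap.

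Ratios within a library do not depend on its scaling, and 6 were tested, with an exact permutation test whose smallest p with 3 against 3 mice is 0.1. The antagonist Il1rn relative to Il1a plus Il1b was 1.32, 0.562 and 1.09 in Gm31629-/- mice and 1.58, 4.27 and 1.74 in WT mice. Every Gm31629-/- mouse lay below every WT mouse, with a mean log2 difference of -1.28 (exact two-sided permutation p = 0.1, 0.3 adjusted over the 6 ratios). Without WT mouse 2 the log2 difference was -0.83. Il18bp relative to Il18 was 0.831, 1.18 and 0.214 against 0.50, 0.107 and 0.424, and overlapped (exact two-sided permutation p = 0.4, adjusted 0.8). Il1r2 relative to Il1r1 was 2.18, 0.350 and 0.214 against 0.333, 0.290 and 0.269 (exact two-sided permutation p = 0.7, adjusted 0.9). Only Gm31629-/- mouse 1 held more decoy than signaling receptor.

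Relative to the summed neutrophil and macrophage markers, Il1b was 1.48%, 5.84% and 2.16% in Gm31629-/- mice and 3.28%, 2.20% and 2.99% in WT mice. The groups overlapped, with a mean log2 difference of -0.07 (exact two-sided permutation p = 0.9, adjusted 0.9). Ly6g, whose family members share reads, is the most abundant neutrophil marker, and Lyz2 the most abundant macrophage marker by the mean over all libraries. In WT mice Cd14 stood above Lyz2, at 37.0 to 48.1 against 22.9 to 33.8 FPKM. Cd14 was not called and overlapped, at 41.7 to 148 FPKM in Gm31629-/- mice, so the summed markers differ in make-up between genotypes. Relative to fibroblast markers, of which Col3a1 was the most abundant, Il33 was 2.06%, 5.41% and 1.32% against 2.35%, 4.31% and 1.75% and overlapped (exact two-sided permutation p = 0.9, adjusted 0.9). The log2 difference for Il33 was -0.09, or -0.64 when the fibroblast sum was replaced by the mean log2 of its genes. Relative to epithelial markers, Il18 was 0.676%, 0.50% and 0.946% in Gm31629-/- mice and 0.364%, 0.338% and 0.246% in WT mice. Here every Gm31629-/- mouse lay above every WT mouse, by 1.13 on the log2 scale (exact two-sided permutation p = 0.1, adjusted 0.3). With the mean log2 of the epithelial genes the difference was 0.96. The epithelial sum includes Krt8, Krt19 and Car1, which were called lower, with Krt8 at means of 2042 against 4198 FPKM. Epcam was nearly level, at 1109 against 1104 FPKM, and the Il18 level itself overlapped. Ratios to Epcam or Cdh1 alone were not computed, and the part of the lower markers in the difference was not tested.

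**Figure D4:**
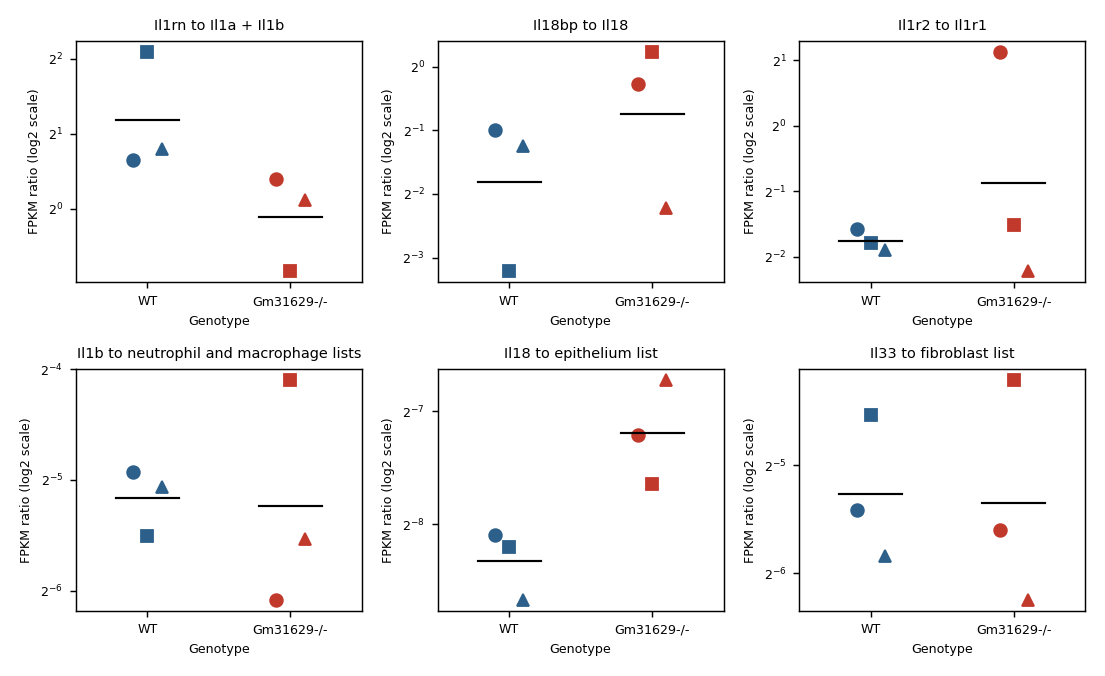
The 6 ratios of members to each other or to a marker list (log2 axis), with a red point for each of the 3 Gm31629-/- mice, a blue point for each of the 3 WT mice and bars for geometric means. The groups were apart for Il1rn to Il1a + Il1b, at 0.562 to 1.32 against 1.58 to 4.27, and for Il18 to the epithelium list.

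The IL-36 and IL-18 receptors and the pathway genes of the family were listed separately. Of 64 genes in 4 lists, 62 were listed and 52 were tested, and 19 were higher and 1 was lower, with a median log2 fold change of 0.67. Over all tested genes 18.4% were higher and 4.64% lower, with a median of 0.15. In the extended family, 1 of 4 tested genes was higher. That gene was Il1rl2, the IL-36 receptor, at 1.09, 2.31 and 1.98 FPKM against 0.127, 0.171 and 0.102 FPKM (log2 fold change 1.28, limma adjusted p = 0.00304). Il18rap, the accessory chain for IL-18, was at 0.845, 1.25 and 0.613 FPKM against 0.160, 0.189 and 0.0946 FPKM, with a limma adjusted p of 0.0141 but a log2 fold change of 0.72. Il18r1 had a log2 fold change of 0.80 (limma adjusted p = 0.0621). Sigirr, a receptor that damps IL-1 signaling, was at 9.0 to 14.8 FPKM in Gm31629-/- mice and 16.2 to 18.1 FPKM in WT mice, without overlap (log2 fold change -0.54, limma adjusted p = 0.0564). The receptors Il1r2, Il1r1, Il1rl2, Il1rl1, Il18r1 and Il18rap lie side by side on the plus strand at chr1:40074079-40551705, where they are the 6 listed protein-coding genes.

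In the inflammasome list, 4 of 15 tested genes were higher and 1 was lower, beside 18.4% and 4.64% of all tested genes. Mefv, which encodes pyrin, and Casp4, which senses cytosolic lipopolysaccharide, had the largest log2 fold changes, 1.99 (limma adjusted p = 0.00654) and 1.53 (limma adjusted p = 0.0173). Nlrp3, a sensor that licenses IL-1β release, rose by 1.34 on the log2 scale (limma adjusted p = 0.0310), from 0.131 to 0.187 FPKM in WT mice to 0.897, 4.85 and 1.29 FPKM in Gm31629-/- mice. The Nlrp3 call was lost without the filter, without Gm31629-/- mouse 2 (log2 fold change 0.84) and without any 1 of the WT mice (limma adjusted p of 0.0781 to 0.0956). Pycard, the adaptor between sensors and caspase-1, fell by 1.65 on the log2 scale (limma adjusted p = 0.00117), from 14.7, 13.3 and 14.1 FPKM to 4.36, 2.62 and 4.66 FPKM. Scaled to the epithelial list, the Pycard log2 fold change was -0.86, which did not reach the fold threshold. Casp1 was at 58.7 to 123 FPKM against 42.6 to 91.1 FPKM and overlapped (log2 fold change 0.39, limma adjusted p = 0.394). Gsdmd, the pore-forming protein through which IL-1β leaves the cell, was at 198 to 296 FPKM against 149 to 157 FPKM (log2 fold change 0.73, limma adjusted p = 0.0179), which did not reach the fold threshold.

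In the receptor signaling list, 2 of 19 tested genes were higher, a share below the 18.4% of all tested genes. Tnfaip3, which encodes the deubiquitinase A20, had a log2 fold change of 1.17 (limma adjusted p = 0.0103), and Irak3, the kinase family member that blocks MyD88 signaling, of 1.00 (limma adjusted p = 0.0180). Under the median ratio these were 0.92 and 0.82, and without Gm31629-/- mouse 2 they were 0.92 and 0.78, short of the fold threshold. Without WT mouse 2 Irak3 was at 0.84 (limma adjusted p = 0.0614). Myd88 was at 16.4 to 29.8 FPKM against 15.7 to 23.9 FPKM, with a log2 fold change of 0.10 (limma adjusted p = 0.758). Of 18 genes known to be induced by these cytokines, 14 were tested and 12 were higher, beside 18.4% of all tested genes. Csf2, Ifng, Il5 and Il13 were below the filter, at 0 to 1.02 FPKM, and were not tested. Il5 reached 0.138 FPKM and Il13 0.0452 FPKM. Of the genes called higher, the largest were Timp1, a protease inhibitor, and Mmp3, a matrix protease. Their log2 fold changes were 3.71 (limma adjusted p = 0.00076) and 3.67 (limma adjusted p = 0.0140). Without Gm31629-/- mouse 3 or WT mouse 3 the Mmp3 call was lost (limma adjusted p = 0.0529 and 0.0586). Without Gm31629-/- mouse 1, calls on 5 pathway genes changed, which are named because their call changed. Naip6, an inflammasome sensor, was then lower (log2 fold change -1.02, limma adjusted p = 0.0126), against -0.65 with all mice (limma adjusted p = 0.152). Cxcl5 and Mmp13 were then higher, at 3.22 and 3.24 against 2.27 and 1.79, and Aim2 and Areg were no longer called, at 0.97 and 0.85. Fibroblasts and macrophages also express Timp1 and Mmp3, and their marker sums stood higher in Gm31629-/- mice, as given above. The part of these cells in the Timp1 and Mmp3 differences was not tested.

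**Figure D5:**
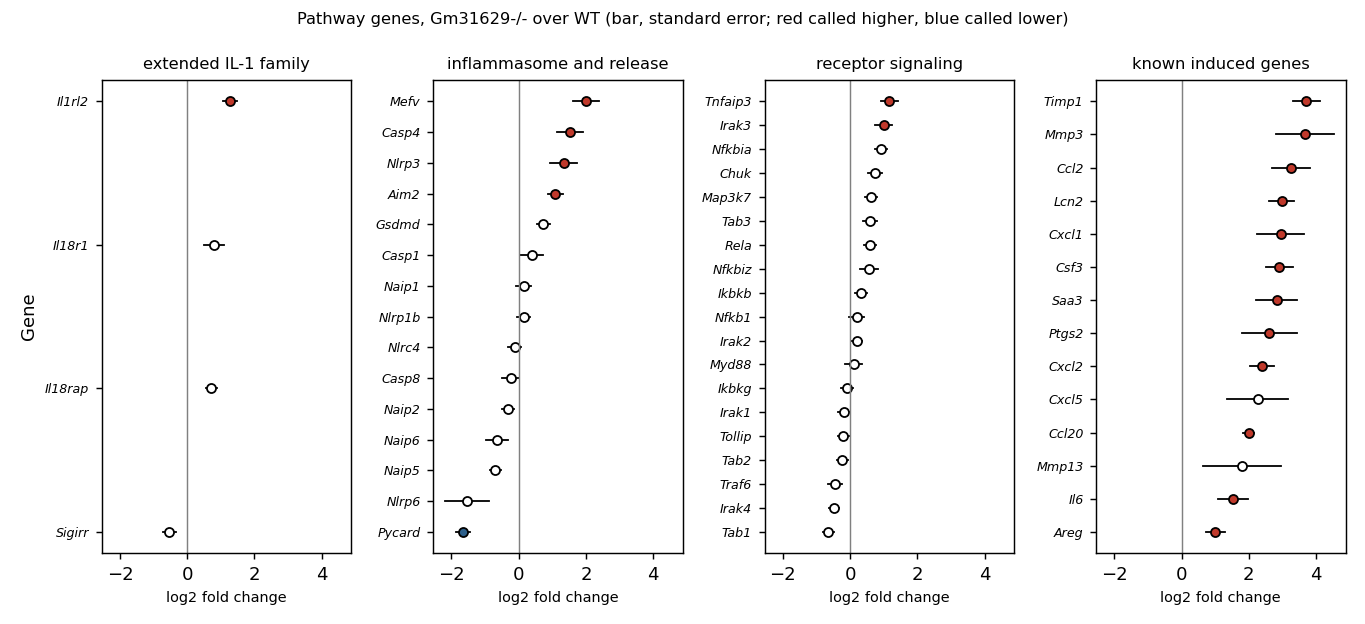
Log2 fold changes of the tested genes of the 4 pathway lists, Gm31629-/- over WT on the log2(FPKM + 1) scale, with a point per gene, bars for the standard error, red for genes called higher, blue for lower and white for not called. Of 52 genes, 19 were higher and Pycard alone was lower, at -1.65.

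Genes whose pattern lay nearest to a member were found by the mean absolute difference of centred log2(FPKM + 1) over the 6 libraries, among 7242 genes of mean FPKM of at least 5. For Il1b these were Tnfaip2, at 0.204, Ms4a6d, at 0.242, Fbln1, at 0.260, Csf3, at 0.263, and Csf1r, at 0.265. For Il18 the nearest was Smpdl3a, at 0.118, followed by Sytl1, Pla2g10, Osbpl2 and Tvp23b. For Il33 the nearest was Lst1, at 0.231, followed by Igkv6-20, Serpina3f, Cd68 and Pdpn. Il1rl1 was added to this comparison after its values were seen, and its nearest were Adgrf1, at 0.299, Aldh1a3, Mmp13, Mmp10 and S100a14. Like Il1rl1, Mmp13 was at 2.83 FPKM in Gm31629-/- mouse 1 and at 110 and 53.7 FPKM in mice 2 and 3.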

How the data were processed

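RNA-Seq of distal colon was carried out on 3 Gm31629-/- and 3 WT mice. The authors deposited FPKM values, 1 column per mouse, and the submitters' processing notes name HISAT2 2.1.0, HTSeq 0.6.0 and GRCm38, without the annotation release. The study's methods speak of pooled RNA from the mice of each genotype, but the table holds a column per mouse, which were treated here as separate mice. If they were not, p-values measure technical spread. The TruSeq kit does not mark strand. The study compared genotypes with DEGseq, which was not repeated.

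Symbols, positions and exon lengths came from GENCODE M21 (GRCm38), which matched 27488 of 27546 identifiers. Fragments were recovered from the size of 1 fragment, and 96.3% to 97.2% of values up to 20 fragments lay 0.1 or less from a whole number, by library. Promoters came from RefSeq (GRCm38.p6). The 14657 genes whose mean FPKM reached 0.5 were fitted on the log2(FPKM + 1) scale in R 4.3.3 by limma 3.58.1, using lmFit and a trended eBayes, and p-values were adjusted over all of them by Benjamini-Hochberg. Ratios were tested by an exact permutation test in scipy 1.17.1, and figures drawn with matplotlib 3.10.9. Scripts were tested on simulated data.

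The members and lists were chosen with earlier results of these data known. Named genes are the members, the top 2 called genes in either direction of each pathway list by log2 fold change, the partners Il18r1, Il18rap, Il1rl2, Sigirr, Casp1, Pycard, Nlrp3, Gsdmd and Myd88, the 5 genes nearest to Il1b, Il18 and Il33, and the most abundant gene of some marker lists. Alternatives were leaving out the filter or raising it to 5 FPKM, a pseudocount of 0.1, rescaling to a common sum, by the median ratio or to the epithelial list, eBayes without a trend, the replicate block, voom on recovered fragments, adjusted p alone, and leaving out each mouse. A ratio without Ly6g was added, and some marker genes and the untested induced genes were named, after seeing the data. The marker list of enteric neurons and glia is not reported here.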

Additional observations from a re-analysis of the deposited data

How the results depend on the processing

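Il1a, Il1b and Il1r2 were called higher under every alternative run for them. The number of members called higher was 6, and 3 to 7 when 1 mouse was left out (3 without WT mouse 3, 7 without Gm31629-/- mouse 1). With the replicate block it was 6, no call on a member changed, and 20 pathway genes were higher. Same-numbered mice had correlations of deviations of 0.0358, -0.108 and 0.0141, which with 3 mice a group cannot show whether they were paired. Of 147 values for single members, 129 kept their direction and side of the threshold, 10 lost the call, 6 gained it and 2 reversed. Both reversals were of Il18, -0.0470 under the median ratio and -0.14 without Gm31629-/- mouse 3, within a leave-one-out range of -0.14 to 0.49. Of the pathway genes, 19 were higher and 1 lower, but scaling to the epithelial list gave 34 higher and 0 lower. The median ratio gave 15 higher, and the filter of 5 FPKM gave 13. Adjusted p alone gave 26 higher and 4 lower. Leaving out 1 mouse gave 13 to 19 higher and 1 to 2 lower, with 2 lower without Gm31629-/- mouse 1. Over all genes, 2704 were higher and 680 lower, against 2233 and 1217 under the median ratio and 6089 and 173 under epithelial scaling. The cause was not tested. Ratio differences without 1 mouse ranged from -1.55 to -0.83 for Il1rn to Il1a + Il1b, from -0.11 to 1.56 for Il1r2 to Il1r1, from -0.64 to 0.35 for Il1b to its marker lists and from -0.66 to 0.36 for Il33 to fibroblasts. With the mean log2 of marker genes the Il1b difference was 0.31, and without Ly6g it was -0.24. With 3 mice a group, the exact test cannot pass 0.05, and wide intervals for Il18, Il18bp and Il1rl1 do not show equal levels.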
